A study of Homo sapiens with 6 samples.

Results

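The E2F and RB family genes studied here are 10 genes that control entry into and exit from DNA replication: the activator E2Fs E2F1, E2F2 and E2F3, the repressor E2Fs E2F4, E2F7 and E2F8, the pocket proteins RB1, RBL1 (p107) and RBL2 (p130), and MYBL2 (B-MYB). They were taken by exact match of the gene symbol, which gave 1 row each in a table of read counts for 28565 genes and in the matching FPKM table. All 10 passed the filter on low counts that left 13389 genes for testing. RNA was measured in 6 libraries from HK-2, an established human line of renal proximal tubule epithelium, after depletion of ribosomal RNA, by directional paired-end sequencing. Cells of 3 libraries had been in cisplatin, which crosslinks DNA, for 24 h and those of the other 3 for 0 h. All 6 libraries came from cells transfected with a plasmid for overexpression of a long noncoding RNA that the titles call LncR2, so cisplatin cannot be told apart here from time since transfection, and the effect of the RNA itself was not measured.

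In resting cells the pocket proteins bind E2F proteins at promoters of cell-cycle genes and hold them silent. Cyclin-dependent kinases phosphorylate the pocket proteins, which frees the activator E2Fs to switch on genes of DNA replication, while E2F7 and E2F8, themselves products of E2F targets, later repress the same promoters. E2F4 with RBL1 or RBL2 and the MuvB core forms the repressor complex DREAM, and MYBL2 joins MuvB in its place in cycling cells and helps to turn on mitotic genes. HK-2 was immortalised with papillomavirus oncogenes, one of which makes a protein that binds the pocket proteins, a limit of the line as a model of RB control.

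Promoters of some E2F genes are themselves bound by E2F proteins, so start-site sequences are shown for 5 members. These are E2F1, the member that was called, RBL1, which holds a pair of E2F motifs like E2F1, and E2F2. The others are E2F7 and MYBL2, whose values ran opposite to each other though neither was called. The sequence of E2F3, which also holds an E2F motif and had a log2 fold change of -0.04, is not shown. Each is the 150 bases before a RefSeq start site (GRCh38.p14), written along the gene's own strand, with the searched motifs in capitals. In E2F1, RBL1 and E2F2 the capitals mark TTTGGCGC, TTTCGCGC or TTTGCCGC, read on either strand, and in E2F7 and MYBL2 they mark the shorter core TTGGCG, which appears in E2F7 as its reverse complement.
E2F1, chr20:33686386-33686535, minus strand: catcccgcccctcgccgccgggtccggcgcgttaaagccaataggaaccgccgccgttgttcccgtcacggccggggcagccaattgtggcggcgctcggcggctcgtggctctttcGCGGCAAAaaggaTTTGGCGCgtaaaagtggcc
RBL1, chr20:37095998-37096147, minus strand: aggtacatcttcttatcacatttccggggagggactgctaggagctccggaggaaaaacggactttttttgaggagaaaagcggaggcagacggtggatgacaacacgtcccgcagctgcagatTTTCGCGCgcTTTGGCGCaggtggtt
E2F2, chr1:23531234-23531383, minus strand: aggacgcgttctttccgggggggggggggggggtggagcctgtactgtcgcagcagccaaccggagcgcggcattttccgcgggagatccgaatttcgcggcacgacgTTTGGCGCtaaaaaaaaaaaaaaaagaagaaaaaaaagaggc
E2F7, chr12:77065570-77065719, minus strand: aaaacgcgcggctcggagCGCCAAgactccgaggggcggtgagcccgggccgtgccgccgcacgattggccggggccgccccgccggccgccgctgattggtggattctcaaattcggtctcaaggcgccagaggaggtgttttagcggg
MYBL2, chr20:43666964-43667113, plus strand: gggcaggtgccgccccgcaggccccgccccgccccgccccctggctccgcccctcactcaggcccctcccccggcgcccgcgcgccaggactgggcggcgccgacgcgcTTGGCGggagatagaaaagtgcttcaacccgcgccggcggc

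RefSeq windows of 300 bases, from 250 before the start site to 50 from it on, were at hand for 9 of the 10 genes (all but E2F8), with 11 windows in all. The E2F motif, searched on both strands as TTTGGCGC, TTTCGCGC, TTTCCCGC or TTTGCCGC, was in 4 of these 11 windows, those of 4 genes, E2F1, E2F2, E2F3 and RBL1, and in 3.31% of all 35116 windows. E2F1 held it at -33 to -26 and at -20 to -13 relative to the start, and RBL1 at -26 to -19 and at -16 to -9. The core TTGGCG, a search added after the sequences were seen, was in 6 of the 11 windows, those of 6 genes (these 4, E2F7 and MYBL2), and in 8.92% of all windows. It lies inside TTTGGCGC. The CHR motif of mitotic promoters, TTTGAA or TTTAAA on both strands, was in 3 of the 11 windows, of E2F3 and RBL2, and in 24.0% of all windows. The start site of the RB1 window lies 172724 bases from the gene start in GENCODE 29, inside the gene, so the window does not show the main RB1 promoter. A match describes letters only and says nothing of binding in these cells.

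In GENCODE 29 on GRCh38, 3 of the 10 genes lie on chromosome 20: E2F1 from 33675683 to 33686404, RBL1 from 36996349 to 37095995 and MYBL2 from 43667019 to 43716496. E2F4 (67192169 to 67198918) and RBL2 (53433977 to 53491649) lie on chromosome 16. The others are E2F2 on chromosome 1 (23506430 to 23531220), E2F3 on chromosome 6 (20401906 to 20493715), E2F7 on chromosome 12 (77021247 to 77065580), E2F8 on chromosome 11 (19224063 to 19241620) and RB1 on chromosome 13 (48303726 to 48599436). Counts were per gene, so products of the separate start sites of E2F3 were not told apart. No other annotated gene overlaps E2F1, E2F2, E2F4, E2F7 or MYBL2. RB1 spans 8 genes on the opposite strand, of which RCBTB2 had the most reads with 23 to 45 per library against 372 to 618 for RB1, and whether the counting used strand is not given in the sources used here. For RB1 and RBL2 the counted gene entry has another version than in GENCODE 29, so the counted gene models may differ from these coordinates.

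Total counts were 6022268 to 7248754 per library at 24 h and 5028881 to 5844246 at 0 h. The summed count of a member over the 6 libraries ran from 491 (E2F8) and 529 (E2F2) to 20012 (MYBL2), so E2F8 and E2F2 are the least precisely measured. Among the 0 h libraries replicate 3 stood apart. Along the first principal component, with 39.3% of the variance, it lay at 1.28, against -23.8 and -24.5 for 0 h replicates 1 and 2, and so nearer to the 24 h libraries, which lay at 6.29, 17.8 and 22.9. On the second component (27.7%) it lay at -30.4, against 8.50 and -1.48 for 0 h replicates 1 and 2. Of 6 markers of renal epithelium, KRT8, KRT18 and PAX8 had 1089 to 2817 counts per library, EPCAM had 224 to 413, KRT19 had 159 to 247 and CDH1 had 0 or 1. Of 6 markers of the proximal tubule, GGT1 had 263 to 445 counts per library, CUBN had 2 to 6, AQP1, SLC34A1 and ANPEP had 0 to 3, and LRP2 was not in the table. Markers of endothelium, leukocytes and fibroblasts summed to at most 7.69 CPM at 24 h and 9.35 CPM at 0 h for any of these lists. In bulk RNA, a change in the share of cells in a phase of the cycle and a change of RNA per cell cannot be told apart.

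E2F1 was the member that passed the test, and it was 1.50-fold higher at 24 h. Its level was 91.1, 89.9 and 79.4 CPM (TMM-scaled read counts relative to library size) in replicates 1, 2 and 3 at 24 h, against 61.0, 56.1 and 56.1 CPM at 0 h. The lowest library at 24 h lay above the highest at 0 h. E2F1 averaged 86.8 ± 6.41 CPM at 24 h, against 57.7 ± 2.83 CPM at 0 h (SD, n = 3 each). The log2 fold change was 0.59 ± 0.11 (standard error), with a 95% interval from 0.36 to 0.81. By edgeR's quasi-likelihood test the Benjamini-Hochberg adjusted p over all genes was 0.00573, the rank of its p being 101 of 13389. E2F1 was thus the single member called at an adjusted p under 0.05, 1 of 10 higher and 0 lower, where 0.866% of all tested genes were called higher and 2.08% lower.

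The E2F1 call was narrowly lost when replicate 2 of either time was left out. With 0 h replicate 2 left out its log2 fold change was 0.56 (edgeR adjusted p = 0.0548, with 0.176% of all genes called higher and 0.756% lower), and without 24 h replicate 2 it was 0.56 (adjusted p = 0.0568, with 0.153% and 0.672%). It was called without 0 h replicate 1 (0.734% and 1.53% of all genes), 0 h replicate 3 (4.18% and 6.72%), 24 h replicate 1 (0.425% and 1.5%) and 24 h replicate 3 (0.38% and 0.98%). Of the fits with a library left out, its log2 fold change was smallest without 24 h replicate 1, at 0.55, where it was called (edgeR adjusted p = 0.0328). Over the 19 alternatives its log2 fold change stayed between 0.55 and 0.82.

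**Figure D1:**
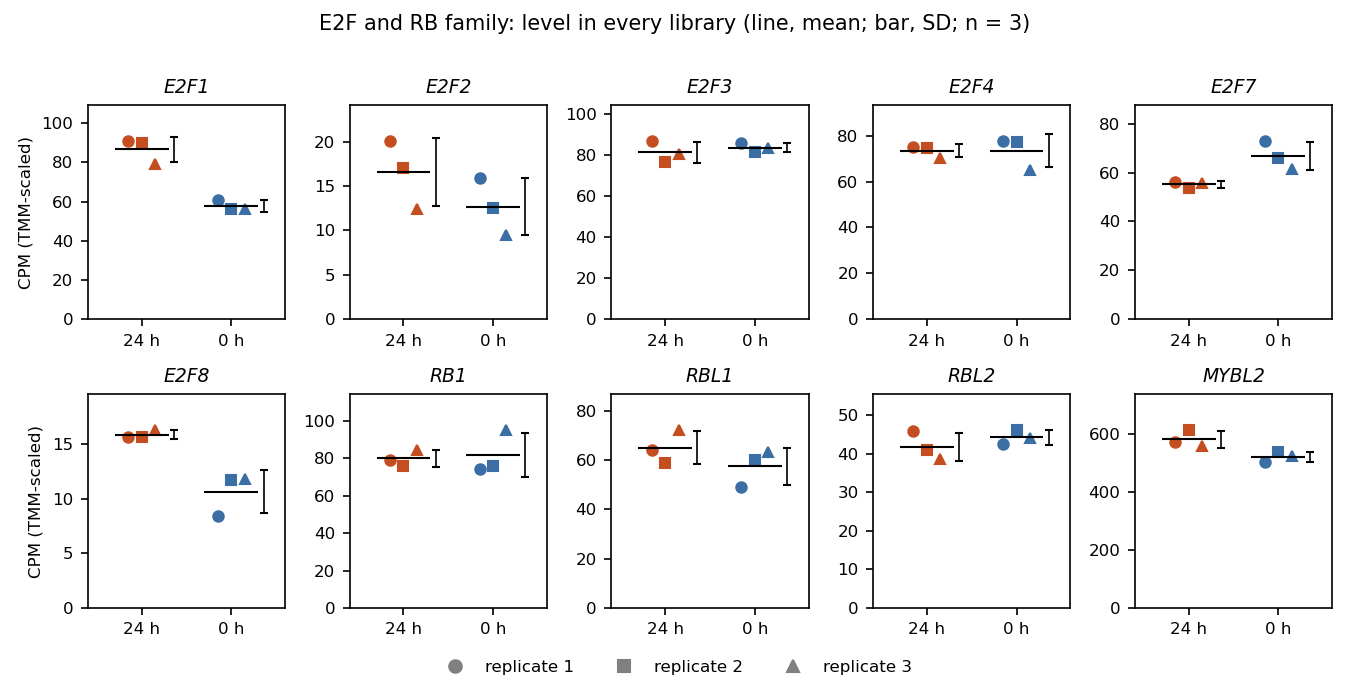
TMM-scaled CPM (vertical axes, from 0) of each family member in the 3 libraries at 24 h (orange, left) and the 3 at 0 h (blue, right); symbols mark replicate numbers, lines the mean and bars the SD. The libraries at 24 h lie above those at 0 h for E2F1, E2F8 and MYBL2 and below them for E2F7, and they overlap for the other 6 genes.

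The other activators did not pass the test. E2F2 had 20.1, 17.1 and 12.5 CPM in replicates 1, 2 and 3 at 24 h, against 16.0, 12.5 and 9.53 CPM at 0 h. The groups overlapped, with a wide spread within each. Its log2 fold change was 0.38 ± 0.21, with a 95% interval from -0.06 to 0.83 (edgeR adjusted p = 0.354). E2F3 had 86.9, 76.8 and 80.5 CPM at 24 h and 85.9, 81.3 and 83.5 CPM at 0 h, with a log2 fold change of -0.04 ± 0.10 and an interval from -0.25 to 0.17. That interval does not reach the value of E2F1, and E2F3 was the better counted of the pair, with 415 to 587 reads per library.

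Of the repressor E2Fs, the atypical pair E2F7 and E2F8, which repress E2F target promoters without a pocket protein, had values of opposite sign in edgeR's fit across all genes. E2F8 had 15.7, 15.6 and 16.3 CPM at 24 h, against 8.37, 11.8 and 11.8 CPM at 0 h, from 95 to 119 reads per library at 24 h and 42 to 67 at 0 h. All libraries at 24 h were higher. Its log2 fold change of 0.57 ± 0.17 was close to that of E2F1, with a 95% interval from 0.20 to 0.94, but did not pass (edgeR adjusted p = 0.0903). E2F8 was called without 0 h replicate 3 (log2 fold change 0.66, edgeR adjusted p = 0.0219), where 4.18% of all genes were called higher and 6.72% lower. With any other library left out it was not called (edgeR adjusted p from 0.158 to 0.254), and its log2 fold change was lowest, at 0.43, without 0 h replicate 1.

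E2F7 had 56.2, 53.7 and 55.5 CPM at 24 h, against 73.0, 65.9 and 61.4 CPM at 0 h, so that all libraries at 24 h were lower. Its log2 fold change was -0.27 ± 0.11, with an interval from -0.50 to -0.05 (edgeR adjusted p = 0.184). E2F4, the main E2F of resting cells, had 75.2, 74.8 and 70.1 CPM at 24 h and 77.8, 77.4 and 65.1 CPM at 0 h. Its groups overlapped, with a log2 fold change of -0.00 ± 0.11 and an interval from -0.23 to 0.23.

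None of the 3 pocket proteins passed. RB1, the retinoblastoma protein and the main brake on the activator E2Fs, had 79.2, 76.0 and 84.7 CPM at 24 h and 74.2, 75.9 and 95.3 CPM at 0 h. The highest value was that of 0 h replicate 3, without which the log2 fold change was 0.10, against -0.03 ± 0.11 with all libraries (interval -0.28 to 0.21). RBL1, which pairs mostly with E2F4 and is itself an E2F target, had 64.0, 58.9 and 72.4 CPM at 24 h and 49.0, 60.0 and 63.6 CPM at 0 h (0.18 ± 0.12, interval -0.08 to 0.44). RBL2, the pocket protein of resting cells, had 45.9, 41.0 and 38.5 CPM at 24 h and 42.5, 46.3 and 44.1 CPM at 0 h (-0.09 ± 0.12, interval -0.33 to 0.16). The edgeR adjusted p-values were 0.909 for RB1, 0.483 for RBL1 and 0.756 for RBL2.

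MYBL2, the activator that replaces the pocket proteins on MuvB and a classical E2F target, had 572, 614 and 558 CPM at 24 h, against 504, 538 and 522 CPM at 0 h. The groups did not overlap, but the difference was small: a log2 fold change of 0.16 ± 0.10 with an interval from -0.05 to 0.37 (edgeR adjusted p = 0.432). In all, groups did not overlap in CPM for 3 members that were higher (E2F1, E2F8 and MYBL2) and 1 that was lower (E2F7), where 10.9% of all tested genes were higher and 11.7% lower without overlap. An unadjusted edgeR p under 0.05 was reached by 2 members with higher values (E2F1 and E2F8) and 1 with a lower one (E2F7), against 8.22% and 9.93% of all genes. The median of the 10 log2 fold changes was 0.08, and that of all genes was -0.00.

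The reading of small changes depends on how the libraries are scaled. The FPKM values (fragments per length and library size) divide by library totals that differ less between 24 h and 0 h than the summed counts do, and scaling the counts by those totals moved the median of all genes to 0.24 on the log2 scale. On that scale 5 members were called higher, E2F1 (0.82), E2F8 (0.81), E2F2 (0.61), RBL1 (0.42) and MYBL2 (0.39), where 17.6% of all genes were called higher and 1.46% lower. E2F3, E2F4, RB1 and RBL2, all between -0.09 and -0.00 with TMM, had values from 0.15 to 0.24, just below or below that median, and E2F7 had -0.04.

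**Figure D2:**
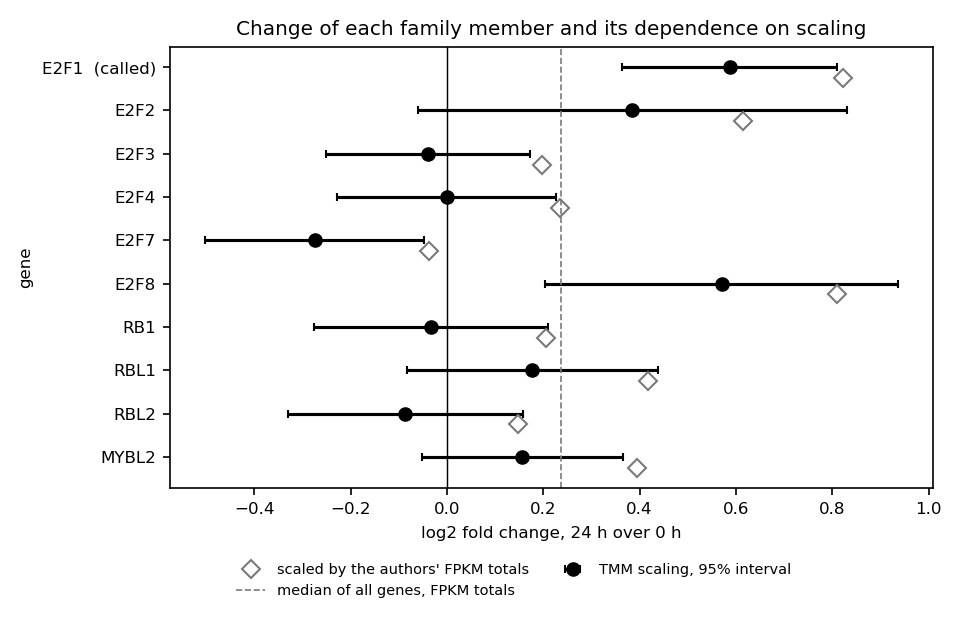
Log2 fold change of each member, 24 h over 0 h (horizontal axis), with TMM scaling and its 95% interval (filled) and with scaling by the totals behind the deposited FPKM (open); the dashed line is the median of all genes under that second scaling, 0.24. E2F1 and E2F8 lie to the right of the other members, and E2F7 to the left, under both scalings.

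Levels per gene length, in the deposited FPKM, spread over about the same order at both times. MYBL2 was highest, at 139 ± 12.03 FPKM at 24 h and 106 ± 4.25 FPKM at 0 h (SD, n = 3 each). E2F4 followed with 23.2 ± 1.13 at 24 h and 19.8 ± 2.01 at 0 h. E2F1 came next, with 22.4, 24.5 and 22.1 FPKM at 24 h, against 13.7, 12.7 and 12.6 FPKM at 0 h. At 24 h the E2F1 libraries overlapped those of E2F4, whereas at 0 h they lay below them, the highest E2F1 value being 13.7 and the lowest E2F4 value 17.4 FPKM.

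Below them RB1 (10.99 ± 1.11 FPKM at 24 h and 9.52 ± 1.34 at 0 h) and E2F3 (10.5 ± 0.381 and 9.12 ± 0.189) overlapped each other at both times. RBL1 was at 7.45 ± 1.07 FPKM at 24 h and 5.58 ± 0.748 at 0 h, and E2F7 at 6.38 ± 0.365 and 6.56 ± 0.560. RBL1 stood above E2F7 at 24 h, with 6.77 against 6.75 FPKM where their ranges came nearest, and overlapped it at 0 h. RBL2 followed with 5.50 ± 0.136 FPKM at 24 h and 4.97 ± 0.247 at 0 h. The lowest were E2F8 (2.69 ± 0.226 and 1.53 ± 0.286) and E2F2 (2.10 ± 0.370 and 1.37 ± 0.345), which overlapped at 0 h and not at 24 h. In FPKM, groups did not overlap for 7 members that were higher at 24 h (E2F1, E2F3, E2F4, E2F8, RBL1, RBL2 and MYBL2) and for 0 that were lower, where 33.3% of all tested genes were higher and 3.01% lower.

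**Figure D3:**
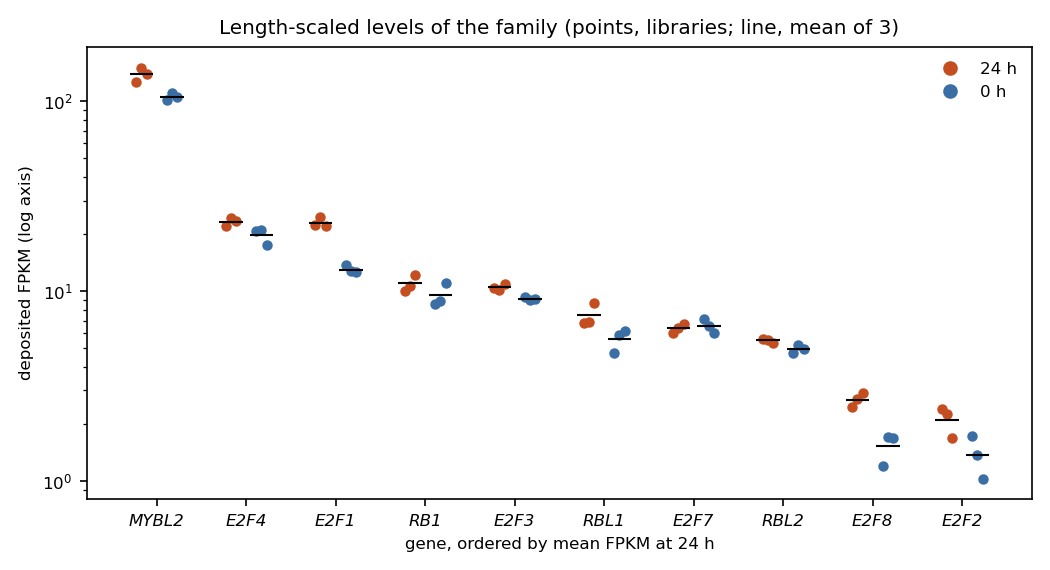
Deposited FPKM (log axis) of each member in every library, 24 h in orange on the left and 0 h in blue on the right of each gene, with the mean of 3 libraries as a line. MYBL2 lies far above the rest, and E2F1 reaches the level of E2F4 at 24 h but not at 0 h.

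Ratios between members within a library do not depend on library scaling, and they are given as a description with no test. The FPKM ratio of E2F1 to E2F3 was 2.16, 2.41 and 2.03 at 24 h, against 1.47, 1.42 and 1.39 at 0 h. E2F1 to E2F4 was 1.01, 1.01 and 0.949 at 24 h, against 0.657, 0.606 and 0.722 at 0 h. E2F1 to RB1 was 2.22, 2.29 and 1.81 at 24 h, against 1.59, 1.43 and 1.14 at 0 h, so in each of these ratios the times did not overlap. Of the 9 ratios of E2F1 to another member, 6 were higher at 24 h without overlap and 0 lower. The 9 ratios of a member share its own values, so such counts are not independent of its CPM values above. The share of such ratios among all genes was not computed.

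Within the activators, E2F1 made up 63.7, 66.4 and 63.8% of the summed FPKM of E2F1, E2F2 and E2F3 at 24 h, against 55.3, 55.2 and 55.5% at 0 h. That share differed little between libraries of a time. E2F7 to E2F8 was 2.46, 2.35 and 2.33 at 24 h, against 5.94, 3.84 and 3.56 at 0 h, where the low E2F8 count of 42 in 0 h replicate 1 makes its ratio the least precise. E2F8 was higher relative to 7 of the 9 other members and E2F7 lower relative to 7, with no overlap between the times. The ratio of E2F7 to E2F8 is in both counts. As for E2F1, these counts share each gene's own values, and the share among all genes was not computed. E2F8 (edgeR adjusted p = 0.0903) and E2F7 (edgeR adjusted p = 0.184) were not called above.

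**Figure D4:**
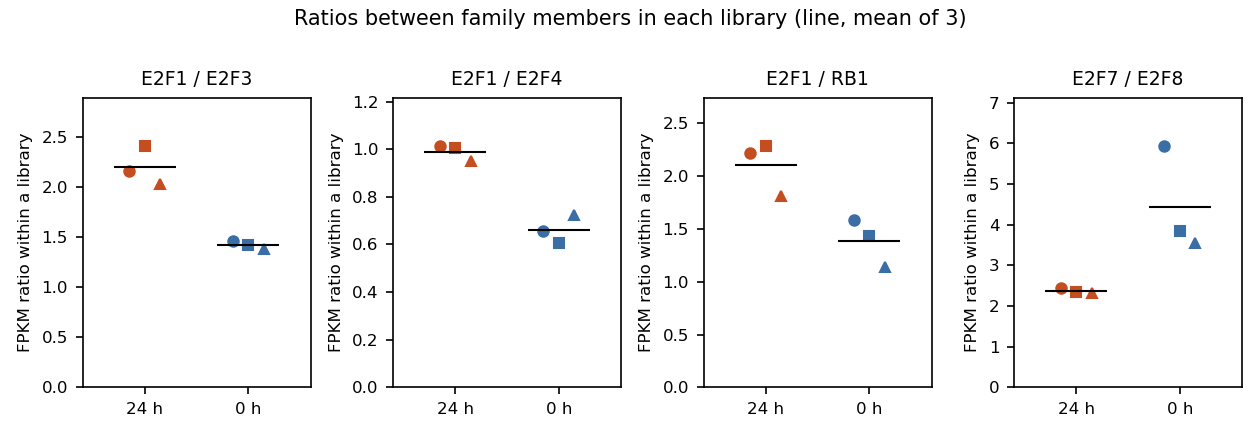
FPKM ratios between pairs of members within each library (vertical axes, from 0), with 24 h on the left and 0 h on the right, symbols for replicates 1 (circle), 2 (square) and 3 (triangle), and the mean as a line. The 3 ratios with E2F1 on top are higher in every library at 24 h, and E2F7 relative to E2F8 is lower in every library at 24 h.

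Partners and regulators of the family did not pass, with 1 exception. Of all genes 0.866% were called higher and 2.08% lower, so 0 calls in lists this small say little. Of the other E2F and DP subunits, 3 of 4 listed genes were tested. By edgeR 0 were called, also 0 at an unadjusted p under 0.05 and 0 by DESeq2. E2F6 was at -0.20 ± 0.14 and TFDP2, a DNA-binding partner of the E2Fs, at 0.08 ± 0.11 on the log2 scale. E2F5 is in neither this list nor the family list, so its values are not given. Of the MuvB core and DYRK1A, the kinase that helps DREAM assemble, 5 of 6 were tested, with 0 called by edgeR, 0 at an unadjusted p under 0.05 and 0 by DESeq2. DYRK1A was at -0.20 ± 0.10 and the histone-binding subunit RBBP4 at 0.13 ± 0.11. Of 11 corepressors 0 were called by edgeR or DESeq2 and 2 had an unadjusted edgeR p under 0.05. These were MGA, a scaffold of the E2F6 repressor complex (-0.29 ± 0.10), and the deacetylase HDAC1 (0.24 ± 0.10). Such a p was reached by 8.22% of all genes with higher values and by 9.93% with lower ones.

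Among 15 cyclins, kinases and kinase inhibitors that act on the pocket proteins, 1 was called higher and 0 lower, where 0.866% and 2.08% of all genes were. An unadjusted p under 0.05 was reached by 4 with higher values and 1 with a lower one, against 8.22% and 9.93% of all genes. The called gene was CCND3, cyclin D3, with 147, 138 and 131 CPM at 24 h, against 108, 102 and 96.9 CPM at 0 h (log2 fold change 0.44 ± 0.10, edgeR adjusted p = 0.0237). Cyclin D2, CCND2, went the other way without passing, with 78.0, 72.9 and 72.1 CPM at 24 h, against 98.9, 91.0 and 93.6 CPM at 0 h (-0.35 ± 0.10, edgeR adjusted p = 0.0723). CCND3 was not called when 0 h replicate 2 was left out (edgeR adjusted p = 0.128), nor when any 1 of the 24 h libraries was (0.106, 0.123 and 0.0514 for replicates 1, 2 and 3). Without 0 h replicate 3 there were 3 of the list called higher and 1 lower, where the shares of all genes called were 4.18% and 6.72%.

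Among known targets of the family, the called genes of the G1/S list were higher and those of the mitotic list lower, while 23 of 28 and 12 of 23 genes did not pass. Of 28 G1/S targets of E2F, 5 were called higher and 0 lower, where 0.866% and 2.08% of all genes were. Values were above 0 for 25 of the 28 and below 0 for 3, with a list median of 0.30 on the log2 scale against -0.00 for all genes. The largest rise was that of TK1, thymidine kinase, with 166, 181 and 163 CPM at 24 h, against 112, 106 and 107 CPM at 0 h (log2 fold change 0.64 ± 0.10, edgeR adjusted p = 0.00142). The others called were RRM2 of ribonucleotide reductase (0.59 ± 0.10), the replication factors CDT1 (0.47 ± 0.11) and CDC45 (0.47 ± 0.12) and TYMS, thymidylate synthase (0.45 ± 0.10). Leaving out any 1 of the 24 h libraries gave 2 calls, where 0.153% to 0.425% of all genes were called higher. Leaving out 0 h replicate 2 gave 1 call (0.176% of all genes) and leaving out 0 h replicate 3 gave 13 (4.18%), so the list's count and the share of all genes moved the same way.

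Of 23 mitotic genes that MuvB controls with MYBL2 or FOXM1, 11 were called lower and 0 higher, where 2.08% and 0.866% of all genes were, with a median of -0.44. Values were below 0 for 22 of the 23, and AURKB, a kinase of chromosome segregation, was above 0 without overlap of the groups (0.16 ± 0.11, not called). In CPM, groups did not overlap for 18 of the 23 that were lower and 1 that was higher. Of all tested genes 11.7% were lower and 10.9% higher without overlap. KIF20A, a kinesin of cytokinesis, had 30.0, 27.4 and 33.2 CPM at 24 h, against 70.8, 71.3 and 66.4 CPM at 0 h (log2 fold change -1.20 ± 0.11, edgeR adjusted p = 5.24e-05). AURKA, a spindle kinase, was at -1.08 ± 0.11, and CENPE, CCNB1, PLK1, TPX2, CCNB2, NUSAP1, CENPF, TOP2A and CDC20 fell by between 0.43 and 0.89 on the log2 scale. MYBL2 itself was at 0.16 ± 0.10, with an interval from -0.05 to 0.37. FOXM1, the factor that follows MYBL2 on mitotic promoters and is itself in this list, was at -0.08 ± 0.11 (interval -0.32 to 0.16, edgeR adjusted p = 0.778). Neither was called, and whether the activity of these factors changed was not tested. The number called lower was 6 without 0 h replicate 2 (0.756% of all genes), 24 h replicate 1 (1.5%) or 24 h replicate 2 (0.672%). It was also 6 with scaling by the FPKM totals (1.46%), under which 23 G1/S targets were called higher (17.6% of all genes), AURKB was called higher (0.40, edgeR adjusted p = 0.0363) and FOXM1 was at 0.16. These lists hold genes whose changes in these libraries were known when the lists were drawn up, so their counts are not independent evidence of a direction.

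**Figure D5:**
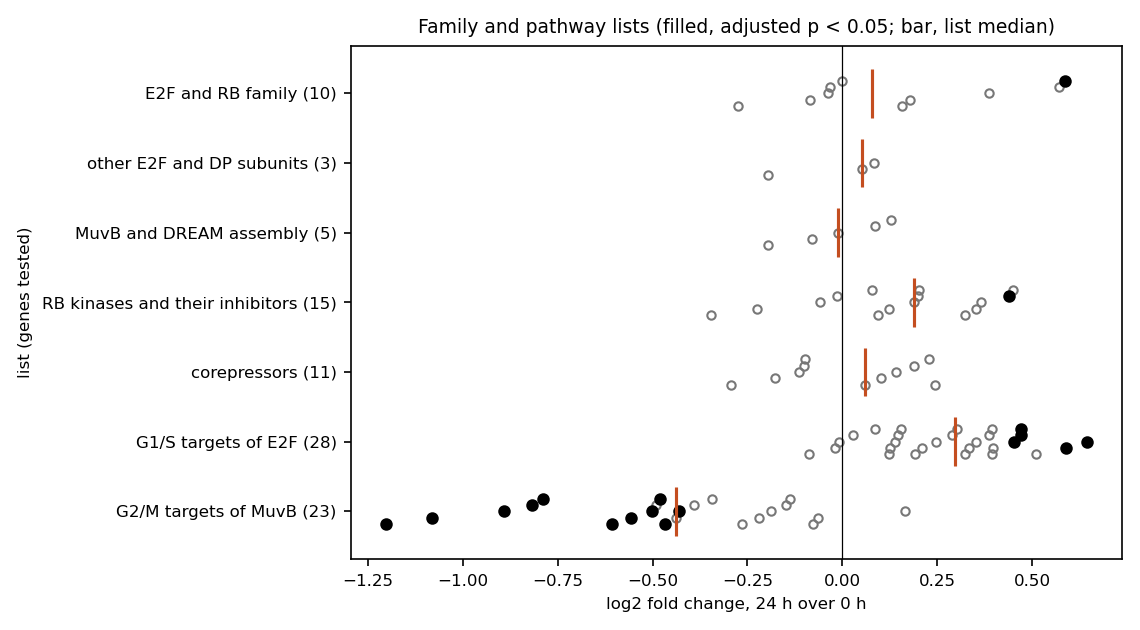
Log2 fold change, 24 h over 0 h, of each tested gene in the family and in 6 pathway lists (rows, with the number of genes tested), filled where the edgeR adjusted p was under 0.05, with the list median as a bar. The family straddles 0 with E2F1 filled on the right, the G1/S targets of E2F lie mostly above 0 and the mitotic targets of MuvB mostly below.

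The genes whose pattern over the 6 libraries was most like that of E2F1, among 9794 others with a mean of at least 10 CPM, were RUNX2, CDIPT and TRMT2A. The root mean square difference of their centred log2 CPM from that of E2F1 was 0.04, 0.05 and 0.05. RUNX2 had 32.3, 30.0 and 26.1 CPM at 24 h, against 21.1, 18.8 and 19.8 CPM at 0 h. With 6 libraries this likeness is a description, and none of the 3 is a member of the lists above.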

How the data were processed

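RNA-seq was measured in 6 libraries of HK-2 cells, 3 per time, grouped by their titles. The deposited read counts are whole numbers per gene, and the deposited FPKM values are given to 2 decimals. The submitters' processing notes list build GRCh38 with edgeR, TopHat2 and bcl2fastq, without versions. The read counter and its strand setting are not stated there.

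The 24 h libraries were compared with the 0 h libraries in edgeR 4.0.16 (R 4.3.3) with the quasi-likelihood test, TMM scaling, default filterByExpr and no covariates, with Benjamini-Hochberg adjustment over 13389 genes and a threshold of 0.05. The fit was also run on counts simulated with the same variation for every gene, a simpler setting than that of these libraries. Standard errors and 95% intervals come from the quasi-F statistic. The common biological coefficient of variation was 0.103. FPKM totals were recovered from count over FPKM in genes with more than 300 counts in every library. Alternatives used limma 3.58.1 on log2(FPKM + 1) and DESeq2 1.42.0. Motifs were searched in RefSeq windows (GRCh38.p14).

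Genes named were all members, the called genes and the 2 smallest p-values of each list, and the 3 most like E2F1; FOXM1 and AURKB were added after their values were seen. Members and lists were chosen with earlier results of these data known. The design text speaks of 2 biological replicates per treatment, and nothing says that the 3 libraries of a time came from separate cultures, so p-values measure only the spread between these libraries.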

Additional observations from a re-analysis of the deposited data

How the results depend on the processing

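E2F1 was called in 17 of 19 alternatives, with edgeR, DESeq2 or limma adjusted p from 7.65e-05 to 0.0568. E2F8 was called in 6, with adjusted p from 0.00472 to 0.254, and E2F7 in 1, with adjusted p from 0.0455 to 0.859. Below, numbers of calls are given in the order family, G1/S targets and RB kinases with their inhibitors for higher values, then mitotic targets for lower ones, and all genes higher and lower.

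Scaling by FPKM totals gave 5, 23 and 8 higher, 6 lower, and 2354 and 195 of all genes. It also gave 4 corepressors, 1 MuvB gene and 1 mitotic target higher. This is 92.3% of all calls higher, against 29.4% with TMM. Limma on log2(FPKM + 1) gave 2, 19 and 8 higher, 5 lower, 1657 and 138 of all genes, with 2 corepressors and 1 mitotic target higher. With a pseudocount of 0.1 the lists were at the same numbers, with 1632 and 136 of all genes. Without a filter on low values limma, over 28561 genes, gave 1, 1 and 1 higher, 1 lower, and 22 and 10 of all genes. Without a filter on low counts edgeR, over 28565 genes, gave 2, 10 and 1 higher, 10 lower, and 345 and 395 of all genes (46.6% of all calls higher). Leaving out both libraries numbered 3 gave 1, 9 and 2 higher, 14 lower, and 306 and 539 of all genes. The cause was not tested.

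Whether replicate numbers pair the libraries was not tested. Same-numbered libraries deviated together with r = 0.24, -0.02 and 0.42 for numbers 1, 2 and 3. For libraries of unlike numbers r ran from -0.37 to 0.23. Deviations were taken from the mean of the libraries of a time, so these r values are not independent of one another. With the replicate number as a block 2 members were called higher (E2F1 and E2F8) and 1 lower (E2F7), 15 G1/S targets and 2 RB kinases higher with 1 lower, 1 corepressor higher and 1 lower, 15 mitotic targets lower, and 739 and 959 of all genes.

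Leaving out each library in turn gave 0 to 2 members higher, 1 to 13 G1/S targets, 0 to 3 RB kinases and 0 to 1 corepressors higher, 0 to 1 RB kinases and 6 to 12 mitotic targets lower, and 21 to 574 and 92 to 923 of all genes. A fit with 2 libraries at 1 time has few degrees of freedom. The most calls, 574 and 923, came without 0 h replicate 3, against 116 and 278 with all libraries. The cause of these differences was not tested.

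Values near 0 changed sign and were not called. With FPKM totals the log2 values were 0.20 for E2F3, 0.24 for E2F4, 0.21 for RB1, 0.15 for RBL2, 0.045 for E2F6, 0.039 for DYRK1A and 0.16 for FOXM1. With limma on log2(FPKM + 1), filtered or not, they were 0.18, 0.23, 0.19, 0.12, 0.040, 0.033 and 0.16 in that order, and with a pseudocount of 0.1 0.19, 0.24, 0.21, 0.15, 0.047, 0.039 and 0.16. Without a filter on low counts E2F3 was at 0.010, E2F4 at 0.050 and RB1 at 0.013. E2F4 was also at 0.0019 with RLE, 0.00031 with upper-quartile and 0.0054 with total-count scaling, 0.0032 with a filter of 1 CPM in 3 libraries, 0.0026 with the replicate block and 0.0019 with DESeq2. RB1 was at 0.046 without both libraries numbered 3. On leaving out a library, E2F3 ran from -0.086 to 0.0041, E2F4 ran from -0.078 to 0.043 and RB1 ran from -0.099 to 0.096. E2F2 and E2F8, the members with the fewest reads, are the members whose intervals are widest.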
